A study of Homo sapiens with 34 samples.

Results

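SOX2 sites of drug-resistant MB157R cells, which express the factor from their own gene, were set against the sites of an HA-tagged SOX2 induced in parental MB157 cells. MB157 is a line of triple-negative breast cancer whose growth depends on NOTCH, and MB157R cells were selected from it over 25 weeks with LY3039478 at 1 µM, a γ-secretase inhibitor (GSI), which keeps NOTCH receptors from being cut and thereby activated. The MB157R iEV cells carried an empty doxycycline-inducible vector, and their chromatin was precipitated with an antibody to SOX2. The MB157 iSOX2 cells carried the same kind of vector with HA-tagged SOX2, and their chromatin was precipitated with an antibody to HA. All cells received 1 µg/ml doxycycline for 72 h. Each condition had 3 ChIP-seq libraries, from which the authors called 1 pooled list of peaks, so that no difference can be set against a spread between replicates. Cell line, source of SOX2 and antibody all changed together between the lists and cannot be told apart. On chromosomes 1 to 22 and X the MB157R iEV SOX2 list held 37963 sites and the HA-SOX2 list 108203, of 290228 in the 8 lists of the series. A site was called shared if its summit, the base with the most fragments, lay under 500 bp from a summit of the other list. This gave 24772 MB157R-only and 13191 shared sites in MB157R iEV, and 95037 HA-only and 13166 shared sites in MB157 iSOX2. The counts of shared sites differ because a summit can have more than 1 partner. Every class was described at the summits of its own list.

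Stem cells and neural progenitors depend on SOX2, a transcription factor that binds DNA through an HMG box, which fits into the minor groove and bends the helix. SOX proteins recognize a short AT-rich word and often bind beside a partner, of which the POU factor OCT4 is the best known in pluripotent cells. RBPJ is the DNA-binding protein of the NOTCH pathway, and AP-1 and ETS proteins are activators common at the enhancers of carcinoma cells.

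The strongest sites of each class show the words that the counts below are about. Here, 81 bases of hg38 around the summit are printed 5′ to 3′ on the plus strand, in lower case. Capitals mark SOX words (CTTTGTT or CATTGTT), AP-1 words (TGACTCA), octamers, which are the word of POU factors, and the word CTTTTGT, all read on both strands. The last word was added to the search after the sequences of the strongest sites had been read. The MB157R-only sites of highest fold enrichment, which is the fragments at the summit over the local background that the peak caller expected, were these, among those with a gene start within 50 kb:
NRARP (chr9:137302277-137302357): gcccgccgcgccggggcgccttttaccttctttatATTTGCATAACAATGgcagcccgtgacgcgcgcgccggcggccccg
EPS15L1 (chr19:16445386-16445466): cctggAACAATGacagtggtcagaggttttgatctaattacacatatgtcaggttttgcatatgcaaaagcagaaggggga
ANO1 (chr11:69948599-69948679): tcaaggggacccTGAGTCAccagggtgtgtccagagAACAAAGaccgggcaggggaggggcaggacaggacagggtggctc
GTF3C4 (chr9:132631463-132631543): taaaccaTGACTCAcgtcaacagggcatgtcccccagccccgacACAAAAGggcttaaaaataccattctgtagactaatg
The NRARP sequence holds an octamer directly followed by a SOX word. The EPS15L1 sequence holds a SOX word near its left end, ANO1 an AP-1 and a SOX word, and GTF3C4 an AP-1 word and CTTTTGT. Strong HA-only sites follow, windows that touch a UTR of any transcript being left out, and 2 of these 4 hold CTTTTGT while the others hold none of the words:
PHEX (chrX:21987796-21987876): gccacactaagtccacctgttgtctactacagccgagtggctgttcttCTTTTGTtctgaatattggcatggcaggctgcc
SOX21 (chr13:94706906-94706986): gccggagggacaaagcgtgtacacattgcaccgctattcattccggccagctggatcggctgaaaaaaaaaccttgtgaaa
EPCAM (chr2:47295644-47295724): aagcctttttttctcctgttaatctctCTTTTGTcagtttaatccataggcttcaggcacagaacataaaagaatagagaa
SWT1 (chr1:185193968-185194048): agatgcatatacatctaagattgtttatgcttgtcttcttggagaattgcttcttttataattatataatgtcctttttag
The first pair of the shared sites below had the highest folds in MB157R iEV, and the second pair the highest in the HA-SOX2 list:
MTF2 (chr1:93079110-93079190): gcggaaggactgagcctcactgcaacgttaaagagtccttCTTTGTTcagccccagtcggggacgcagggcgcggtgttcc
VWCE (chr11:61297811-61297891): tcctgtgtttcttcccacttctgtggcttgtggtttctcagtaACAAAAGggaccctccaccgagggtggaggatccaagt
SOX13 (chr1:204108788-204108868): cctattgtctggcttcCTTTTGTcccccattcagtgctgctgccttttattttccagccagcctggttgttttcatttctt
SPRY1 (chr4:123418625-123418705): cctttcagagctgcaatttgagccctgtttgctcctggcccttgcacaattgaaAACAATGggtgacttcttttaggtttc
Each of these 4 holds a single word, a SOX word at MTF2 and SPRY1 and CTTTTGT at VWCE and SOX13.

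Of the MB157R iEV SOX2 sites, 34.7% were shared (95% exact binomial interval 34.3 to 35.2), and of the HA-SOX2 sites 12.2% (12 to 12.4). Such intervals cover counting error only. The share depended on the rule and on the length of the lists. With the HA-SOX2 list shortened to the length of the MB157R iEV list it was 13.9% of either, and with summits under 100 bp apart it was 22.9% of the MB157R iEV SOX2 and 8.04% of the HA-SOX2 sites. Strong sites were shared more often than weak ones, mainly in MB157R. In MB157R iEV, 51.8% of the 10% of sites with the highest folds (50.2 to 53.4, from 10.7-fold upward) were also HA-SOX2 sites, against 29.5% of the lowest 10% (28.0 to 31.0). The share was 59.2% among the strongest 1000 sites and 69% among the strongest 100. The gradient was shallow in MB157 iSOX2, where 14.9% of the top 10% (14.3 to 15.6, from 18.5-fold upward) and 11% of the lowest 10% (10.4 to 11.6) were shared. Even of the strongest 100 HA-SOX2 sites, which all exceeded 112-fold, 31% were MB157R iEV SOX2 sites. The median fold was 5.08 at MB157R-only sites and 5.74 at shared sites of the same list, and 5.93 at HA-only sites against 6.34 at shared sites. Peaks of the one-sided classes were narrower, with median widths of 386 bp (MB157R-only) against 449 bp (shared), and 487 bp (HA-only) against 645 bp (shared). The median background expected at the summits was 2.65 fragments at MB157R-only and 2.68 at shared sites of MB157R iEV, and 2.73 at HA-only and 3.07 at shared sites of HA-SOX2.

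**Figure D1:**
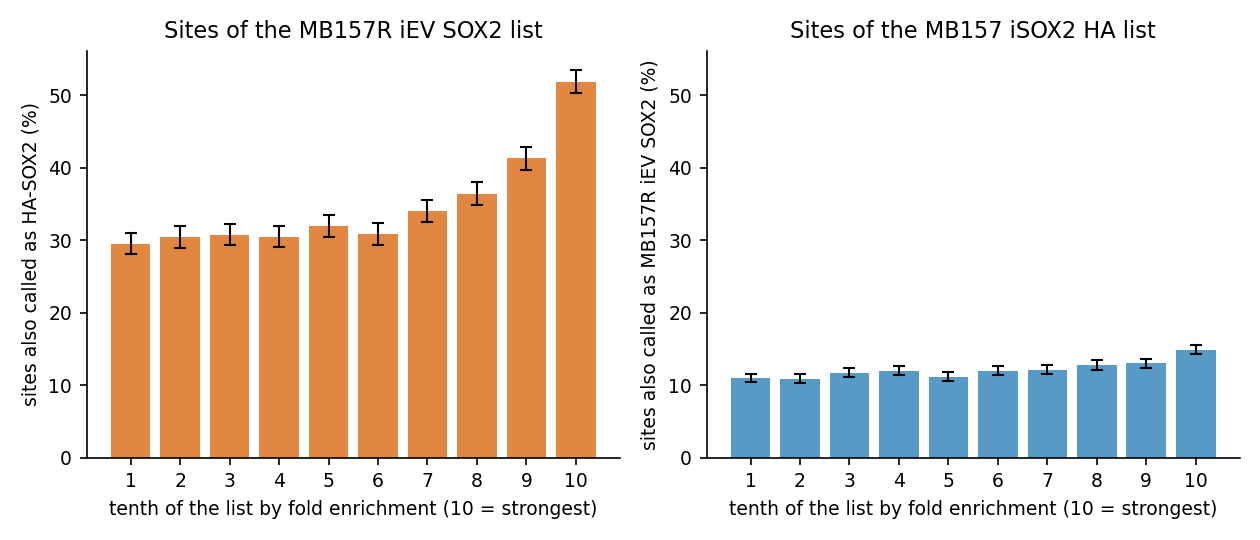
Share of sites also called in the other list (y axis, %, bars with 95% exact binomial intervals) by rank of fold enrichment in 10 equal bins (x axis, 10 the strongest), for the MB157R iEV SOX2 list (left) and the HA-SOX2 list (right). The share reaches 51.8% in the strongest bin of MB157R iEV SOX2 and 14.9% in that of HA-SOX2.

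Among shared sites, which the rule limits to under 500 bp, the median distance between the summits was 57 bp, and 46.0% of the shared MB157R iEV sites had an HA-SOX2 summit within 50 bp. The SOX motif was most common where the summits were closest. It stood within 100 bp of the MB157R iEV summit at 29.3% of the sites whose HA-SOX2 summit was under 50 bp away, at 23.6% of those 50 to 100 bp away, and at 16.1% of those 400 to 500 bp away. The other sites were mostly far from the other list. The nearest HA-SOX2 summit lay at a median of 8.25 kb from MB157R-only sites, and the nearest MB157R iEV SOX2 summit at 29.2 kb from HA-only sites. A peak of the other list with a more distant summit overlapped 1355 of the MB157R-only sites (5.47%) and 1027 of the HA-only sites (1.08%).

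Enrichment at shared sites was only loosely related between the lists. Over the 13191 pairs, which differ in cells and antibody but share sequence and location, Pearson's r of the log2 folds was 0.34 and Spearman's rho 0.35. Of the 1968 shared sites in the top 10% of MB157R iEV, 516 had a partner in the top 10% of the HA-SOX2 list and 450 a partner in its lower 50%. CLIC5, which encodes a chloride channel protein, illustrates pairs that were strong in both, with folds of 44.9 in MB157R iEV (chromosome 6, 46061964 to 46062710) and 107 for HA-SOX2. The site 2.54 kb upstream of VWCE (chromosome 11, 61297459 to 61298182) had folds of 53.8 in MB157R iEV and 72.8 for HA-SOX2, and the site in intron 1 of PLPP2, a lipid phosphatase (chromosome 19, 289923 to 290871), 42.7 in MB157R iEV and 37.9 for HA-SOX2. PHYHD1 was strong in MB157R iEV, with a fold of 44.5 for a summit in an intron of the neighboring LRRC8A (chromosome 9, 128912206 to 128912993) and 7.71 for its HA-SOX2 partner. SOX13, a SOX factor of another subgroup, showed the opposite. Its site in intron 1 (chromosome 1, 204108231 to 204109582) had the highest fold of all shared HA-SOX2 sites, 194 with 902 fragments at the summit, and a fold of 4.64 in MB157R iEV. Likewise intron 4 of FGFR2, a fibroblast growth factor receptor (chromosome 10, 121552751 to 121554436), had folds of 9.12 in MB157R iEV and 175 for HA-SOX2. Its summits were 364 bp apart, so that it is not a shared site at a distance of 250 bp.

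Shared sites were closer to genes. A promoter, taken as the region within 1 kb of the annotated start of a protein-coding gene, held 6.41% of the MB157R-only sites (6.11 to 6.73) and 18.2% of the shared sites (17.6 to 18.9, odds ratio 0.308, Woolf 95% interval 0.288 to 0.329). It held 4.28% of the HA-only sites (4.15 to 4.41) and 18.1% of the shared sites (17.4 to 18.8, odds ratio 0.202, 0.191 to 0.213). For MB157R-only sites the direction depended on the length of the HA-SOX2 list. When the HA-SOX2 list was shortened by −log10 q to the length of the MB157R iEV list, the odds ratio for MB157R-only sites was 1.46 (1.31 to 1.62), while that for HA-only sites was 0.119 (0.103 to 0.138). Promoter sites were the weak part of the shared class, with a median fold of 4.48 in MB157R iEV against 6.08 for shared distal sites. Shared promoters made up 31.5% of shared sites in the lowest 10% of MB157R iEV folds and 6.35% in the highest 10%. The median distance to the nearest gene start was 54.8 kb for MB157R-only sites and 30.3 kb for shared sites, and 57.5 kb for HA-only sites against 30.3 kb for shared sites. Introns outside promoters held 44.4% of MB157R-only, 46.6% of HA-only and 41.3% of shared sites.

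The motifs separated the 2 one-sided classes. MB157R-only sites were rich in AP-1 words, and HA-only sites held them little more often than their flanks and held SOX words most often. Within 100 bp of the summit, 35.1% of the MB157R-only sites held an AP-1 word (34.5 to 35.7) and 23.3% of the shared sites of the same list (22.6 to 24.1, odds ratio 1.77, 1.69 to 1.86). In windows of the same length 1 kb to each side, 3.51% for MB157R-only and 3.15% for shared sites did. Of the HA-only sites 3.81% held it (3.69 to 3.93), near the 3.08% of their flanks, and of the shared HA-SOX2 sites 18.0% (17.4 to 18.7, odds ratio 0.180, 0.171 to 0.191). The SOX words went the other way. They stood at 16.2% of MB157R-only (15.7 to 16.7) and 23.8% of shared sites (23 to 24.5, odds ratio 0.620, 0.589 to 0.654), with 8.41% in the flanks of MB157R-only and 7.80% in those of shared sites. At HA-only sites they stood at 31.5% (31.2 to 31.8) and at shared HA-SOX2 sites at 25.5% (24.7 to 26.2, odds ratio 1.34, 1.29 to 1.40), with 9.20% in the flanks of HA-only and 7.94% in those of shared sites. HA-only sites were AT-rich, with a median GC content of 36.8% against 45.3% at shared sites, while MB157R-only and shared sites had 44.8% and 46.3%. Compared within 5 bins of GC content, a comparison added after the data had been seen, the SOX odds ratio of HA-only sites was 1.05 (1.00 to 1.10), while that of MB157R-only sites was 0.584 (0.553 to 0.615). The AP-1 odds ratios were then 1.66 (1.58 to 1.74) for MB157R-only and 0.180 (0.169 to 0.191) for HA-only sites.

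**Figure D2:**
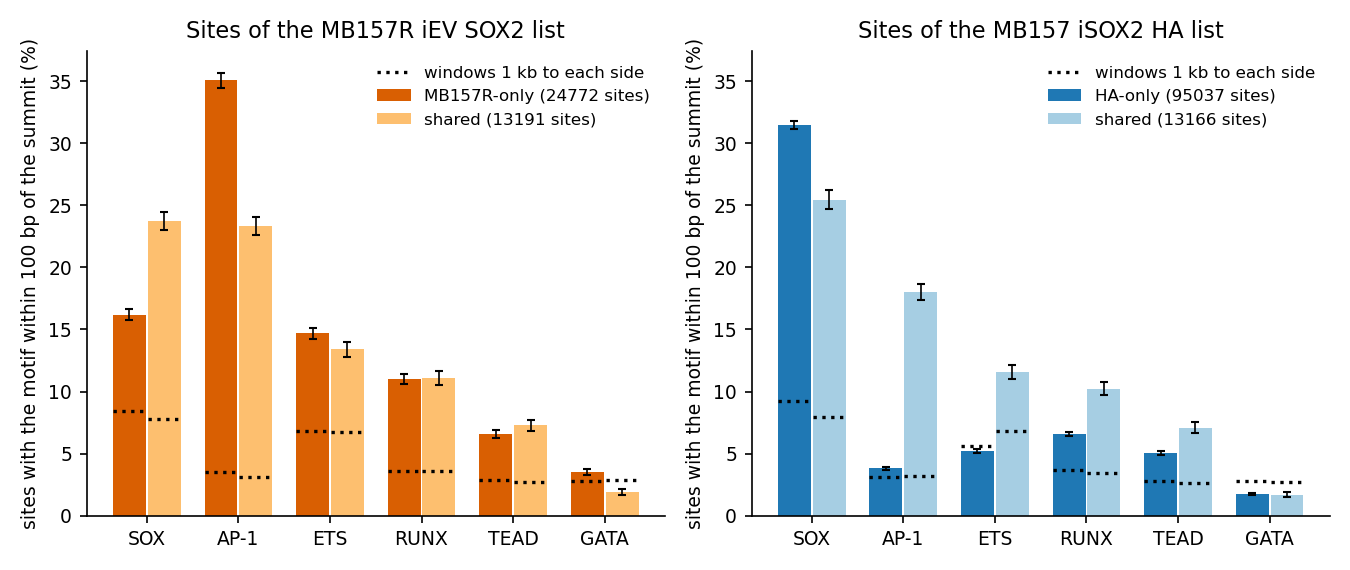
Share of sites with a motif within 100 bp of the summit (y axis, %, bars with 95% exact binomial intervals) for MB157R-only and shared sites of the MB157R iEV SOX2 list (left) and HA-only and shared sites of the HA-SOX2 list (right). Dotted lines give the share in windows 1 kb to each side, and the AP-1 bar stands at 35.1% for MB157R-only sites and at 3.81% for HA-only sites.

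The AP-1 difference was present at every strength. Among MB157R-only sites the share with an AP-1 word was 20.7% in the lowest of 10 equal bins of fold and 42.8% in the highest, against 9.29% and 35.9% of the shared sites in these bins. HA-only sites stayed between 3.43% and 4.27% in all 10 bins, and shared HA-SOX2 sites between 11.5% and 22%. SOX words became more frequent with fold in all classes. They reached 31.2% of MB157R-only and 38.5% of shared sites in the top bin of MB157R iEV, and 38.1% of HA-only and 39.3% of shared sites in the top bin of HA-SOX2. Sites with an AP-1 and no SOX word made up 29.6% of MB157R-only and 17.3% of shared sites of MB157R iEV. Such sites were 2.69% of the HA-only class and 13.0% of shared HA-SOX2 sites. SOX words were centered on the summit in every class, at a median distance of 26 bp from it at MB157R-only and 23 bp at shared sites of MB157R iEV, and of 33 bp at HA-only and 30 bp at shared sites of HA-SOX2.

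**Figure D3:**
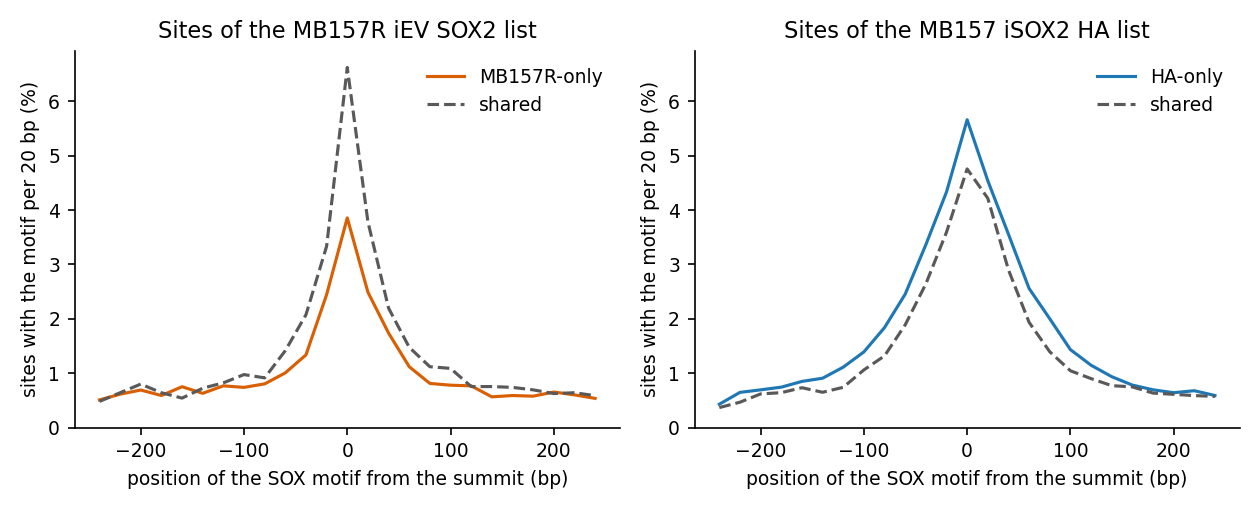
Position of the SOX motif relative to the summit (x axis, bp) as the share of sites per 20 bp (y axis, %), for MB157R-only and shared sites (left) and HA-only and shared sites (right). The share is highest at the summit in all 4 classes, with 3.86% for MB157R-only and 6.62% for shared sites of MB157R iEV, and 5.66% for HA-only and 4.75% for shared sites of HA-SOX2.

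Other words were read in the same way. The ETS words (CCGGAAG or CAGGAAG) stood at 14.7% of MB157R-only and 13.4% of shared sites (odds ratio 1.11, 1.05 to 1.18), and at 5.19% of HA-only and 11.6% of shared sites (0.419, 0.394 to 0.445), where the flanks of HA-only sites had 5.60%. RUNX (TGTGGTT) stood at 11% of MB157R-only and 11.1% of shared sites (0.994, 0.929 to 1.06), and at 6.55% of HA-only and 10.2% of shared sites (0.616, 0.579 to 0.655). TEAD (ACATTCC), the word of the factors that work with YAP, was less frequent in both one-sided classes than in the shared class, with 6.58% of MB157R-only against 7.26% of shared sites (0.899, 0.827 to 0.976) and 5.04% of HA-only against 7.08% of shared sites (0.697, 0.648 to 0.750). The GATA word AGATAAG was more frequent at MB157R-only sites, with 3.49% against 1.93% of shared sites (1.84, 1.6 to 2.12), but was less frequent than in the flanks in the other classes. The word CTTTTGT, an A/T-rich relative of the SOX word with a further T, followed the SOX words. It stood at 7.59% of MB157R-only and 12.4% of shared sites (0.582, 0.543 to 0.624) and at 22.7% of HA-only and 14.4% of shared sites (1.75, 1.66 to 1.84), against 4.83% to 5.52% of the flanks. An inverted pair of SOX half-sites 4 bases apart, here called the SOX dimer, was rare. It was found at 13 MB157R-only sites and no shared site of MB157R iEV, where the exact interval reaches up to 0.0280%, and at 137 HA-only and 2 shared sites of HA-SOX2. The MB157R-only share, 0.0525%, was near the 0.0404% of the flanks, and the HA-only share was 0.144% against 0.0316% of the flanks. The composite of SOX and octamer words was held by 8 MB157R-only and 10 shared sites of MB157R iEV, and by 59 HA-only and 12 shared sites of HA-SOX2. By fold, NRARP led those of MB157R iEV. As a control, the letters of the SOX words in reversed order stood at 8.57% of MB157R-only and 10.3% of shared sites, where the flanks had 7.17% for MB157R-only and 6.64% for shared sites. They stood at 16.8% of HA-only and 11.5% of shared sites, with 8.04% in the flanks of HA-only and 6.59% in those of shared sites. The odds ratio of these control words was 0.816 (0.759 to 0.876) for MB157R-only sites. For HA-only sites it was 1.55 (1.47 to 1.64), above the 1.34 of the SOX words, so the HA-only excess was not particular to SOX words. CTTTTGT was not compared within bins of GC content.

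RBPJ was close to most MB157R iEV SOX2 sites of either class, but RBPJ of the parental cells lay mainly at shared ones. RBPJ here means a called summit, not the RBPJ word (GTGGGAA), which was little more frequent than in the flanks. The word stood at 4.38% of MB157R-only and 4.36% of shared sites, with 3.96% in the flanks of MB157R-only and 3.59% in those of shared sites. It stood at 2.93% of HA-only sites, below the 3.47% of their flanks, and at 4.11% of shared HA-SOX2 sites, above their flanks. Whether sites near an RBPJ summit held the word more often was not tested. An RBPJ summit of MB157R iEV lay within 500 bp of 54.2% of MB157R-only (53.6 to 54.8) and 62.1% of shared sites (61.3 to 63.0, odds ratio 0.722). With lists of equal length this odds ratio was 1.02 (0.959 to 1.08). RBPJ of MB157 iEV, the parental cells with an empty vector, lay near 6.38% of MB157R-only and 31.3% of shared sites, an odds ratio of 0.149 (0.140 to 0.159). RBPJ of MB157 iSOX2 lay near 8.00% of MB157R-only and 41.9% of shared sites, a contrast not independent of the rule, which keeps MB157R-only sites away from HA-SOX2 summits. Away from promoters, the RBPJ of MB157 iEV was near 4.24% of MB157R-only and 25.3% of shared sites. The RBPJ share of MB157R-only sites grew with fold, with 76.5% of the top 10% (74.5 to 78.4) and 43.5% of the lowest 10% (41.6 to 45.4), whereas the share near RBPJ of MB157 iEV was 2.68% and 11.6% in these bins.

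At HA-only sites RBPJ was less common. RBPJ of the same MB157 iSOX2 cells lay near 11.3% of HA-only (11.1 to 11.5) and 41.9% of shared sites (41.0 to 42.7, odds ratio 0.177), and RBPJ of MB157R iEV near 5.07% of HA-only and 61.3% of shared sites. The contrast for RBPJ of MB157R iEV is not independent of the class rule, which keeps HA-only sites away from MB157R iEV SOX2 summits. Within the HA-only class the share was higher at both ends of the range of folds. It was 18.7% in the top of 10 bins of fold (17.9 to 19.5), against 7.73% in bin 7 and 18.1% in the lowest bin, and 52 of the 69 HA-only sites among the strongest 100 of the list had RBPJ nearby (75.4%, 63.5 to 84.9). Shared sites exceeded these shares, with 54.3% in the top bin and 29 of 31 among the strongest 100 (93.5%). Without induced SOX2, in MB157 iEV, RBPJ lay near 7.30% of the HA-only sites of the top bin and 14.6% of those of the lowest bin. The RBPJ lists differed in length, with 46601 sites in MB157R iEV, 34521 in MB157 iSOX2 and 25243 in MB157 iEV. Shares near different RBPJ lists, here and for the MB157R iEV SOX2 sites above, are therefore not directly comparable.

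The remaining lists touched few sites. The HA control, a single library of MB157 iEV cells without the tag, had 77 sites, which lay within 500 bp of 19 MB157R-only and 35 shared sites of MB157R iEV, and of 17 HA-only and 37 shared sites of HA-SOX2. SOX2 of MB157R iN1-ICD cells, in which the NOTCH1 intracellular domain was induced, had 323 sites. These lay near 130 MB157R-only and 172 shared sites of MB157R iEV, and near 3 HA-only and 171 shared sites of HA-SOX2. The class rule keeps HA-only sites at least 500 bp from every MB157R iEV SOX2 summit. The contrast of 3 with 171 is therefore not independent of the rule. The depth, given as the fragments expected at any place of the genome, was 1.96 for MB157R iEV SOX2 and 2.24 for HA-SOX2. The HA control was shallower, with 0.524, which limits the sites that could be called in it. By chromosome, the share of MB157R iEV sites that were shared was between 28.6% and 43.8%.

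Sites were given to the nearest protein-coding gene if its start lay within 50 kb. Of 19962 genes, 34% had an MB157R-only site, 69.1% an HA-only site and 28.3% a shared site. At promoters the shares were 7.71%, 19.2% and 11.8%. These are the backgrounds for the gene groups below, whose lists are short. Among all genes, 1093 had sites of the MB157R-only class alone and 6147 of the HA-only class alone, and 4190 had no site.

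Several genes carried many sites of 1 class. ITGB6, which encodes the β6 subunit of an epithelial integrin that activates TGFβ, had 13 MB157R-only sites, the highest number of any gene, and no HA-SOX2 site within 50 kb. Their folds ran from 3.29 to 14.9, and 10 of the 13 had RBPJ of MB157R iEV nearby. The strongest lay 25.6 kb upstream (chromosome 2, 160225720 to 160226214). TGFBI, a matrix protein induced by TGFβ, had 11 MB157R-only sites with folds of 3.72 to 16.4, 9 of them near RBPJ, and no site of another class. Its strongest site was 11.8 kb upstream (chromosome 5, 136016746 to 136017612), 133 kb from the nearest HA-SOX2 summit. AREG, which encodes the EGFR ligand amphiregulin, had 9 MB157R-only and 2 HA-only sites. ITGA6, an integrin of basal and stem cells, had 11 MB157R-only, 2 shared and 2 HA-only sites, and its strongest site, in intron 1 (chromosome 2, 172441848 to 172443053), was shared with folds of 19.6 in MB157R iEV and 3.70 for HA-SOX2. The zinc finger gene KLF6 had 12 MB157R-only sites, of which an HA-SOX2 peak overlapped 2, besides 9 HA-only and 1 shared site. The transport protein gene MAL2 had 12 MB157R-only, 2 HA-only and 1 shared site.

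HA-only strings were longer. APP, the amyloid precursor gene, had 22 HA-only sites with folds of 2.83 to 44, 1 MB157R-only and 1 shared site. BTG1, an inhibitor of proliferation, had 19, and TPD52, a gene overexpressed in breast cancer, 18. BCL11A, a zinc finger factor of blood, neural and mammary stem cells, had 17 HA-only sites and no MB157R iEV SOX2 site within 50 kb of its start. The strongest (chromosome 2, 60507390 to 60509636, fold 82.1) lay in an intron 46.5 kb downstream. TFAP2C, a transcription factor of luminal and trophoblast cells, had 17 HA-only, 2 MB157R-only and 2 shared sites. Shared sites gathered at ERRFI1, a feedback inhibitor of EGFR, and at RIPK4, a keratinocyte kinase, with 8 each. MYO10, a myosin of filopodia, and TMC1 also had 8. Of the 12 MB157R iEV SOX2 sites of RIPK4, 8 were shared, and of its 8 HA-SOX2 sites only 1 was HA-only.

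**Figure D4:**
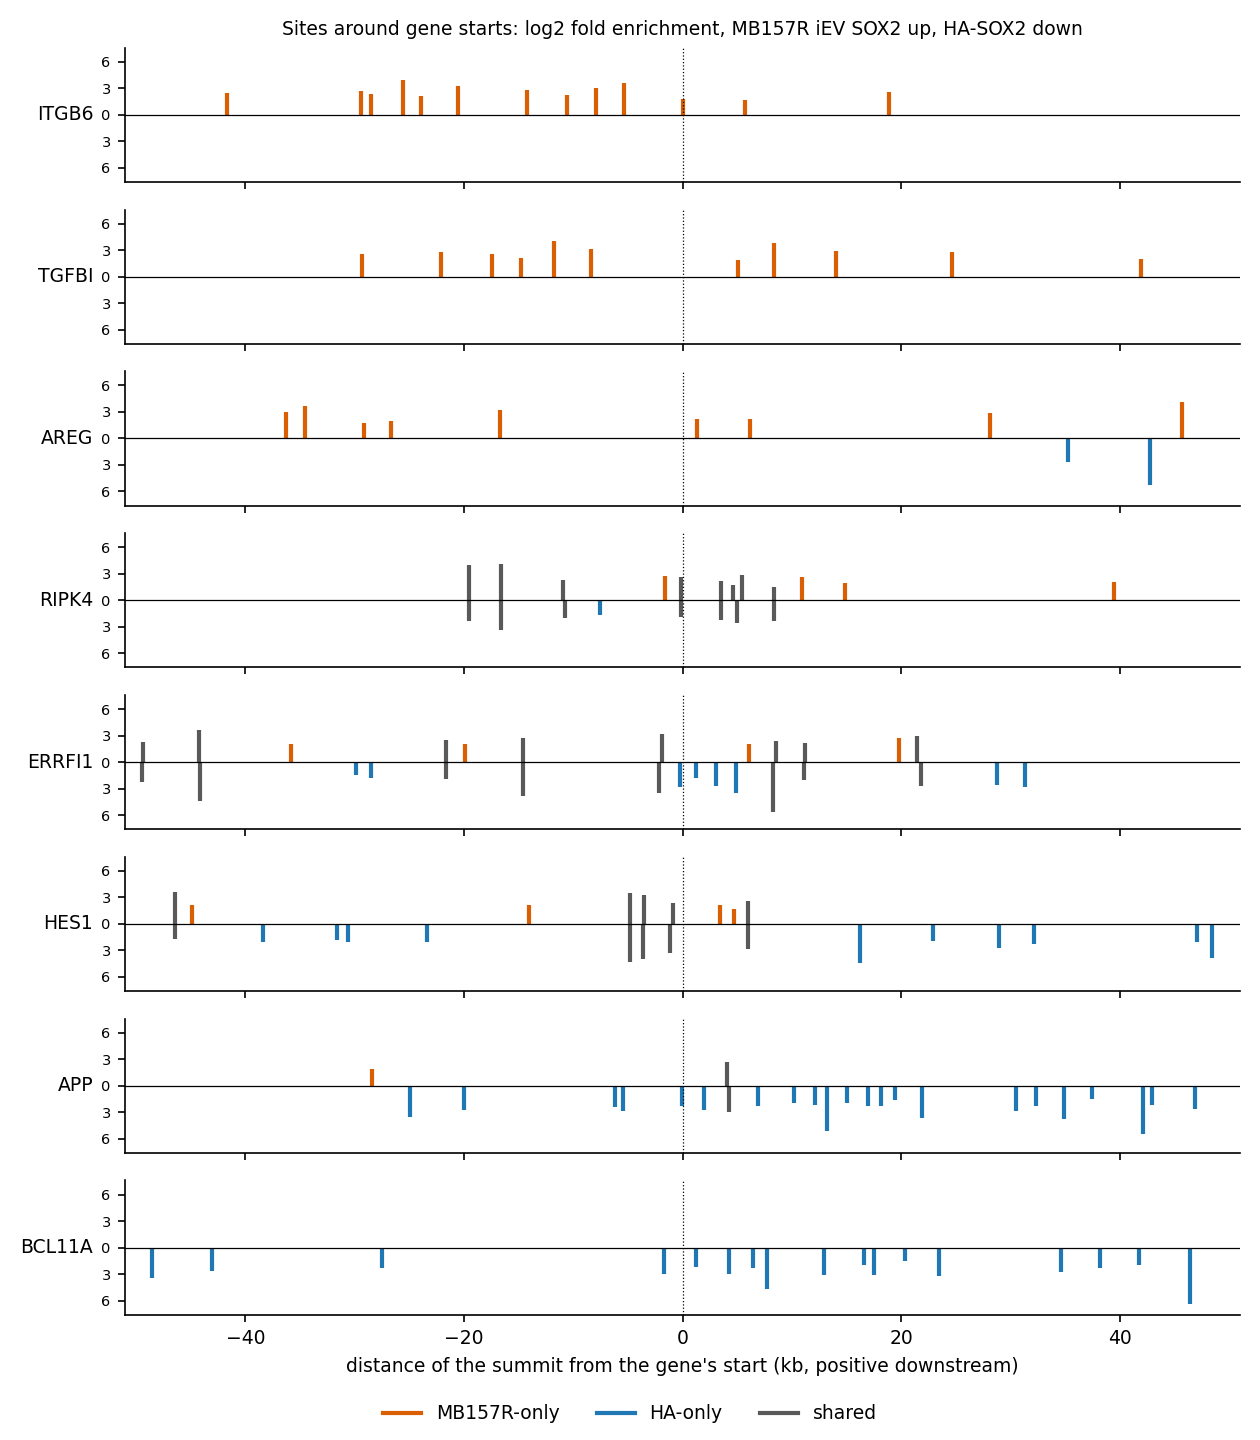
Sites within 50 kb of the start of 8 genes (x axis, distance of the summit from the gene's start in kb, downstream positive), with the log2 of the fold drawn upward for MB157R iEV SOX2 and downward for HA-SOX2 (y axis) and the class by color. ITGB6 and TGFBI show 13 and 11 MB157R-only sites and nothing below the line, and BCL11A shows 17 HA-only sites and nothing above it.

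Genes of the NOTCH pathway carried all 3 classes. Among 11 receptors and ligands, 6 had an MB157R-only (54.5%), 7 an HA-only (63.6%) and 5 a shared site (45.5%). The shares of all genes were 34%, 69.1% and 28.3%. NOTCH1 had 5 MB157R-only sites with folds of 3.65 to 4.98, all weaker than the strongest of its 3 shared sites, and 2 HA-only sites. The strongest in MB157R iEV was a shared site at the promoter, 0.318 kb upstream (chromosome 9, 136546184 to 136546861). It had folds of 15 in MB157R iEV and 9.61 for HA-SOX2, with summits 30 bp apart and RBPJ nearby. A shared site 26.2 kb upstream of NOTCH1 (chromosome 9, 136572092 to 136572511) had folds of 12 in MB157R iEV and 10.3 for HA-SOX2 with summits 69 bp apart. JAG1, which encodes a NOTCH ligand, had 2 MB157R-only, 10 HA-only and 1 shared site. DLK1, a non-canonical ligand, had 5 MB157R-only sites and no HA-SOX2 site, and the strongest of them (chromosome 14, 100755542 to 100756286, fold 16.6) lay 241 kb from the nearest HA-SOX2 summit. Among the 35 transducers and modulators, 22 had an MB157R-only (62.9%), 30 an HA-only (85.7%) and 15 a shared site (42.9%). LFNG, which glycosylates NOTCH receptors, had a shared site in intron 1 (chromosome 7, 2523112 to 2524718) with folds of 31.8 in MB157R iEV and 22.2 for HA-SOX2, besides 6 MB157R-only sites. MAML2, a coactivator of the NOTCH complex, had 6 shared sites, with the strongest in intron 1 (chromosome 11, 96314011 to 96314979, folds 20.7 in MB157R iEV and 15.4 for HA-SOX2). SPEN, a corepressor that binds RBPJ, had 3 shared sites and a highest HA-SOX2 fold of 53.0, 1.87 kb upstream (chromosome 1, 15833327 to 15835002). FBXW7, the ubiquitin ligase subunit that degrades the NOTCH intracellular domain, had 1 MB157R-only and 13 HA-only sites.

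The targets of the pathway differed from each other. NRARP, a feedback inhibitor of NOTCH, had the strongest MB157R-only site of the genome, 46 bp upstream of its start (chromosome 9, 137302201 to 137302420, fold 52.3, 177 fragments). The peak was 220 bp wide, less than the median of its class, and the nearest HA-SOX2 summit was 2.19 kb away. NRARP had 4 MB157R-only sites in all, 2 HA-only and no shared site. HES1, a repressor of the HES and HEY family, had 4 MB157R-only sites with folds of 3.31 to 4.48, 5 shared sites with 5.36 to 11.9, and 10 HA-only sites with 3.45 to 22.3. All 5 of its shared MB157R iEV sites had RBPJ nearby. A shared HES1 site 4.79 kb upstream (chromosome 3, 194131016 to 194131583) had folds of 11.7 in MB157R iEV and 20.4 for HA-SOX2 with summits 21 bp apart. HEY1, HEY2 and HEYL encode repressors of the same family. HEY1 had 2 MB157R-only, 8 HA-only and 2 shared sites, whereas HEY2 had 5 and HEYL 2 sites, all HA-only. The HEY2 sites were weak, with folds of 3.17 to 4.93, and the strongest HEYL site, in intron 2 (chromosome 1, 39632090 to 39632733), had a fold of 18.5. HES5 had no site of either list. BHLHE40, a related repressor of the clock and hypoxia response, had 6 MB157R-only, 2 HA-only and 4 shared sites. Of all 13 repressors of the list, 7 had an MB157R-only (53.8%), 9 an HA-only (69.2%) and 6 a shared site (46.2%). The shares of all genes were 34%, 69.1% and 28.3%.

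The SOX family of 19 annotated genes held 39 MB157R iEV SOX2 and 87 HA-SOX2 sites, of which 25 were MB157R-only and 74 HA-only. Shared were 35.9% of these MB157R iEV and 14.9% of these HA-SOX2 sites, near the 40.3% and 15.3% of all sites given to genes. SOX2 itself had 3 MB157R-only, 11 HA-only and 2 shared sites. One of its HA-only sites (chromosome 3, 181712391 to 181713019, fold 3.70) lay in the coding exon, which the vector also carries, so that reads of the vector cannot be told apart from reads of the gene there. The HA-only sites upstream of SOX2 had folds of up to 115, and the highest fold of an MB157R iEV SOX2 site was 7.20, 27.9 kb downstream (chromosome 3, 181739639 to 181740074). SOX21 had 1 MB157R-only, 9 HA-only and 1 shared site, SOX14 had 7 HA-only sites alone, and SOX13 had 2 MB157R-only, 14 HA-only and 4 shared sites. SOX9, a factor of progenitor and luminal cells, had 5 MB157R-only sites, up to a fold of 17.2 at 30.7 kb downstream (chromosome 17, 72150827 to 72152034), with a SOX and an AP-1 word and RBPJ nearby. Its HA-only sites reached 51.1 at 14.0 kb upstream (chromosome 17, 72103985 to 72108220). SOX8, a relative of SOX9, had 2 MB157R-only sites and no HA-SOX2 site. Of the SOX genes, 12 had an MB157R-only (63.2%), 12 an HA-only (63.2%) and 6 a shared site (31.6%). The shares of all genes were 34%, 69.1% and 28.3%.

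The genes of factors whose motifs differed also had sites. Of 27 ETS genes, 11 had an MB157R-only (40.7%), 21 an HA-only (77.8%) and 18 a shared site (66.7%). The shares of all genes were 34%, 69.1% and 28.3%. A shared site at the promoter was held by 10 ETS genes (37%, against 11.8% of all genes). ETS2, a target of RAS signaling, had 10 MB157R-only, 3 shared and 1 HA-only site, with its strongest site 7.52 kb upstream (chromosome 21, 38797385 to 38797852, fold 15.5) beside an AP-1 word. ELF5, a factor of the mammary alveolar lineage, had 1 MB157R-only, 8 HA-only and 1 shared site. Its highest HA-SOX2 fold was 63.8 at 21.5 kb upstream (chromosome 11, 34546099 to 34547477). ELK4 had a fold of 77.8 in intron 4 (chromosome 1, 205615741 to 205617303), an HA-only site. Of 20 AP-1 genes, 11 had an MB157R-only (55%), 17 an HA-only (85%) and 11 a shared site (55%). FOSL2 had 7 MB157R-only, 3 HA-only and 2 shared sites, and FOS 2 MB157R-only, 10 HA-only and 3 shared sites. FOSB had its strongest site, with a fold of 23.2, in the MB157R-only class (chromosome 19, 45443396 to 45443991), and MAF had 3 MB157R-only sites, 2 of them at the promoter, and no HA-SOX2 site. BATF had 10 HA-only sites alone.

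Of 23 pluripotency and stem cell genes, 11 had an MB157R-only (47.8%), 21 an HA-only (91.3%) and 7 a shared site (30.4%). The shares of all genes were 34%, 69.1% and 28.3%. Sites of the HA-only class alone were held by 9 (39.1%, against 30.8% of all genes and 45% to 55% of the liver, blood and muscle lists below). Those 9 included NANOG with 4 sites and a highest fold of 22.8, PRDM14 with 6 sites and 33.9, and LIN28B with 9 sites and 9.74. They also included PROM1, which encodes CD133, with 10 sites and a highest fold of 41.3 at 3.28 kb upstream (chromosome 4, 16087232 to 16088241). POU5F1, which encodes OCT4, had no MB157R-only, 3 HA-only and 2 shared sites. A shared one 22.8 kb upstream (chromosome 6, 31203183 to 31204223) had folds of 9.38 in MB157R iEV and 11.7 for HA-SOX2. The stem cell markers CD44 and ALDH1A1 had 5 and 2 MB157R-only sites, 9 and 5 HA-only sites and 3 and 1 shared sites. Of 27 neural progenitor genes, 6 had an MB157R-only, 18 an HA-only and 4 a shared site, shares below or near those of all genes, and 12 had HA-only sites alone (44.4%). FABP7, a fatty acid binding protein of radial glia, had an HA-only site with a fold of 34.2, 0.416 kb upstream of its start (chromosome 6, 122778709 to 122779742). LHX2 had 4 and GLI2 had 3 MB157R-only sites.

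Basal genes had the highest share of genes with an MB157R-only site of all lists, 89.5%. Of 19 basal mammary genes, 17 had an MB157R-only site, 15 an HA-only (78.9%) and 10 a shared site (52.6%). The shares of all genes were 34%, 69.1% and 28.3%. An MB157R-only site at the promoter was held by 7 basal genes (36.8%, against 7.71% of all genes). EGFR had 5 MB157R-only, 1 HA-only and 1 shared site, the strongest 22.9 kb upstream (chromosome 7, 54995458 to 54996396, fold 11.5). ITGA3, a laminin-binding integrin, had 6 MB157R-only sites with a highest fold of 9.32 and 2 HA-only sites with a highest fold of 4.36. The keratin genes KRT5 and KRT17 had 2 MB157R-only promoter sites each. TRIM29 and ACTA2, of which ACTA2 encodes smooth muscle actin of myoepithelial cells, had 2 MB157R-only sites each and no HA-SOX2 site. Of 20 luminal genes, 10 had an MB157R-only (50%), 17 an HA-only (85%) and 8 a shared site (40%). ESR1, the estrogen receptor gene, reached a fold of 108 at an HA-only site 7.09 kb downstream (chromosome 6, 151663126 to 151664339).

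Epithelial genes had sites of all classes, with 14 of 25 having an MB157R-only (56%), 21 an HA-only (84%) and 13 a shared site (52%). The shares of all genes were 34%, 69.1% and 28.3%. CDH1, which encodes E-cadherin, had 2 MB157R-only, 8 HA-only and 6 shared sites. Its HA-only sites included folds of 46.8 in intron 2 (chromosome 16, 68785084 to 68786253) and 36.3 upstream (chromosome 16, 68728687 to 68730036), whereas its MB157R iEV sites did not exceed 8.45. EPCAM, an epithelial adhesion molecule, had no MB157R-only, 13 HA-only and 2 shared sites. Its highest HA-SOX2 fold, 158, was at an HA-only site 49.5 kb upstream. Its promoter site was shared, with folds of 11 in MB157R iEV, the highest there, and 29.6 for HA-SOX2. TJP1, a tight junction protein, had 4 MB157R-only sites and no HA-SOX2 site. Of 26 mesenchymal genes and regulators of epithelial-mesenchymal transition (EMT), 14 had an MB157R-only (53.8%), 18 an HA-only (69.2%) and 12 a shared site (46.2%). TWIST2, an inducer of EMT, had a shared site in intron 1 (chromosome 2, 238864185 to 238864773) with folds of 18.2 in MB157R iEV and 15.4 for HA-SOX2 and summits 6 bp apart. SNAI1 had a shared site 13.9 kb upstream (chromosome 20, 49968777 to 49969273) with folds of 16.4 in MB157R iEV and 6.22 for HA-SOX2. ZEB1 had 2 sites, both HA-only, and FN1, which encodes fibronectin, had 4 MB157R-only, 3 HA-only and 2 shared sites.

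Feedback inhibitors of growth factor signaling, genes of YAP signaling and ETS genes each had a shared site at 66.7% of their genes, against 28.3% of all genes. Of 18 feedback inhibitors of receptor tyrosine kinases, 13 had an MB157R-only, 16 an HA-only and 12 a shared site, and 7 a shared site at the promoter. SPRED2 had 6 shared sites, DUSP6, the phosphatase of ERK, had 5 MB157R-only, 9 HA-only and 2 shared sites, and SPRY4 had a shared site 30.6 kb upstream (chromosome 5, 142356827 to 142357215) with folds of 20.9 in MB157R iEV and 6.30 for HA-SOX2. SPRY2 had 4 MB157R-only sites, 2 at the promoter, and no HA-SOX2 site, while SPRY3 had 12 HA-only sites alone. Of 18 genes of TEAD, YAP and their targets, 9 had an MB157R-only, 16 an HA-only and 12 a shared site, and 27 of their 43 MB157R iEV sites were shared (62.8%, against 40.3% of all sites given to genes). TEAD1 had a shared site in intron 2 (chromosome 11, 12693520 to 12694483) with folds of 26.2 in MB157R iEV and 22.7 for HA-SOX2, summits 2 bp apart and both a SOX and an AP-1 word. VGLL4, which competes with YAP for TEAD, had one with folds of 22.9 in MB157R iEV and 21.3 for HA-SOX2 and the same words (chromosome 3, 11764616 to 11765480). CCN1, a target of YAP, had a shared site 26.7 kb downstream with folds of 16.6 in MB157R iEV and 8.54 for HA-SOX2 (chromosome 1, 85606743 to 85607735). LATS2, a kinase upstream of YAP, had 5 MB157R-only sites, 2 HA-only and no shared site. Among 15 Src family and related kinases, 11 had an MB157R-only (73.3%), 13 an HA-only (86.7%) and 7 a shared site (46.7%), with 9 MB157R-only sites at EPHA2. The shares of all genes were 34%, 69.1% and 28.3%.

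The HOX genes were the list with the highest number of genes given sites of the MB157R-only class alone. Of 39 genes, 15 had an MB157R-only (38.5%), 13 an HA-only (33.3%) and 5 a shared site (12.8%). Sites of the MB157R-only class alone were held by 10 (25.6%), against 1093 of all 19962 genes (5.48%). HOXA7 had the strongest, with a fold of 25.4 and 129 fragments 7.70 kb upstream, within the gene body of HOXA9 (chromosome 7, 27165322 to 27166240), 18.6 kb from the nearest HA-SOX2 summit. HOXB1 had 6 sites and HOXB4 and HOXB8 had 3 each, all MB157R-only. HOX genes of the C cluster had no MB157R-only site. Sites went to the nearest gene start, so that neighboring HOX genes divide those of a cluster. The start was the outer end of the annotated gene, and starts of transcripts inside a gene were not used. The HOXA7 site could thus lie closer to a transcript start within HOXA9. HOXB7 and HOXD12, for example, had HA-only sites. Of 12 genes of Polycomb repressive complex 2, which represses HOX genes, 4 had an MB157R-only (33.3%), 9 an HA-only (75%) and 6 a shared site (50%). The shares of all genes were 34%, 69.1% and 28.3%, so that the first 2 counts were near those of all genes. PHF19 had 5 MB157R-only sites with folds up to 17.4 (chromosome 9, 120892521 to 120893184) and no HA-SOX2 site, and EZH2, the methyltransferase, 1 MB157R-only, 11 HA-only and 1 shared site.

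Lists of other tissues and of ribosomal genes had MB157R-only sites at fewer of their genes than all genes did. Of 20 liver genes, 3 had an MB157R-only, 11 an HA-only and 2 a shared site, and of 20 blood cell genes 2 had an MB157R-only, 12 an HA-only and 2 a shared site. Of 20 skeletal muscle genes, 2 had an MB157R-only, 14 an HA-only and 3 a shared site. SERPINA1, a liver protease inhibitor, had an HA-only site with a fold of 119, 6.80 kb upstream (chromosome 14, 94396693 to 94398498), 202 kb from the nearest MB157R iEV SOX2 summit. The HA-only shares of these lists, 55%, 60% and 70%, were near the 69.1% of all genes, and their MB157R-only shares, 15%, 10% and 10%, were below the 34% of all genes. Of 77 cytosolic ribosomal protein genes, 20 had an MB157R-only, 50 an HA-only and 19 a shared site. Of these, 17 had the shared site at the promoter (22.1%, against 11.8% of all genes).

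**Figure D5:**
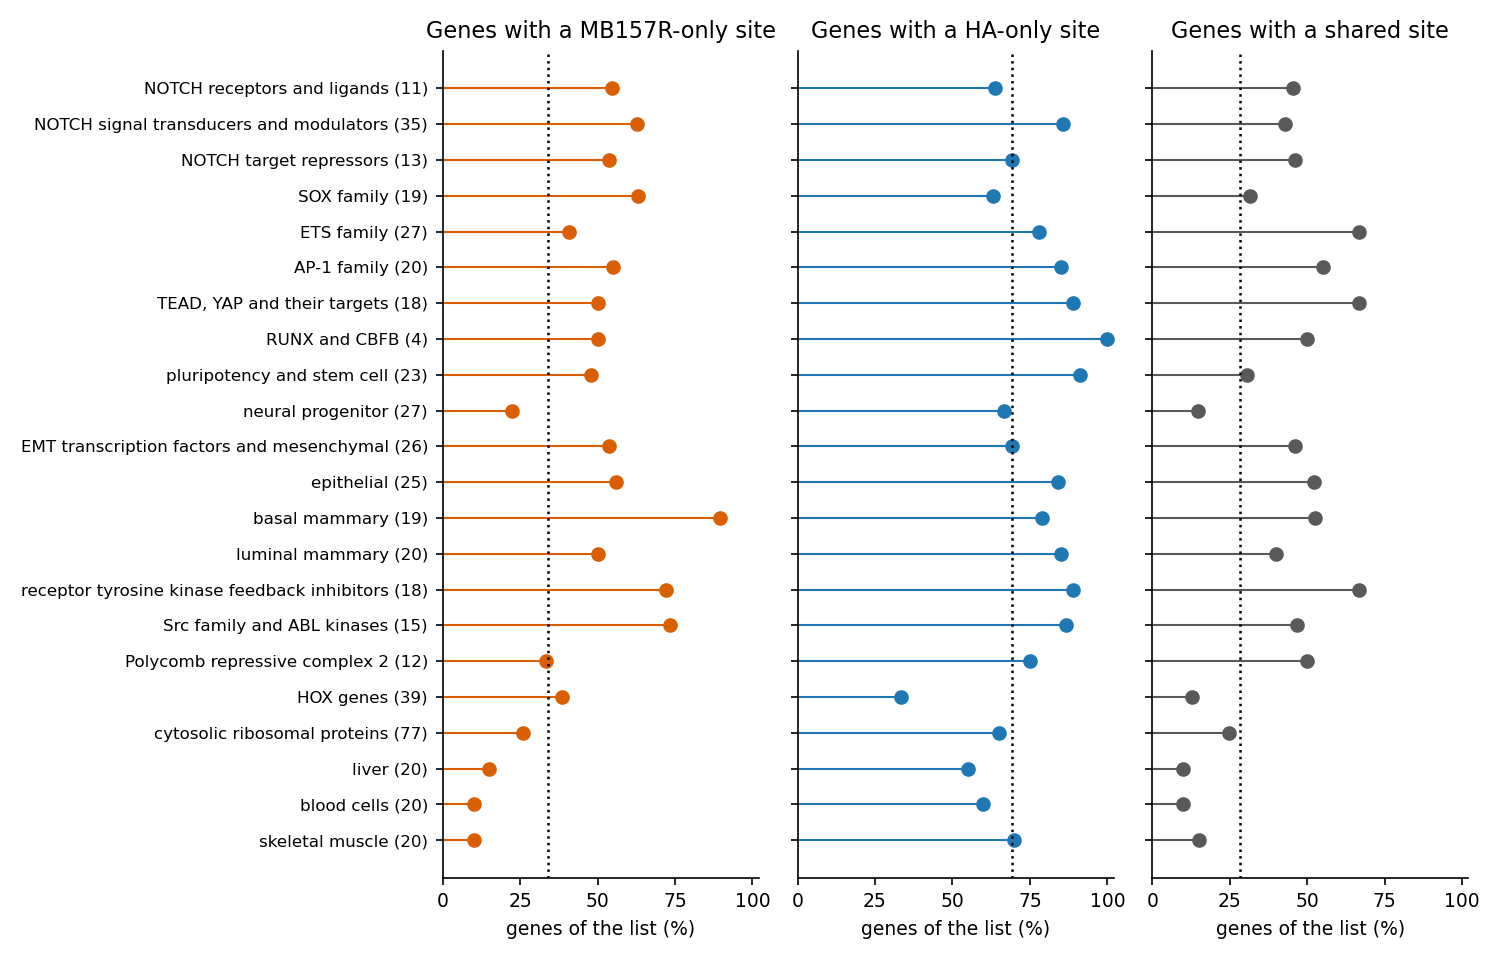
Share of the genes of each list (y axis, number of genes in parentheses) with an MB157R-only (left), HA-only (middle) or shared site (right) nearest to them and within 50 kb (x axis, %). Dotted lines give the share of all protein-coding genes, 34%, 69.1% and 28.3%, and basal mammary genes lie farthest above that of MB157R-only sites with 17 of 19 genes.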

How the data were processed

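Adapters were removed by the authors, who mapped the read pairs on hg38 (BWA) and used MACS2 within nf-core/chip-seq, at a false discovery rate of 0.05, for narrow peaks of pooled replicates. Whether the sequenced inputs entered the peak calling is not given in the sources used here. The deposited values used here were the peak and summit positions (other columns), the authors' fold enrichment at the summit, a ratio over the local background, and the deposited −log10 p and −log10 q values. The fragments at a summit and the expected background were recovered from the deposited fold and −log10 p, for 100% of the sites of both SOX2 lists.

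A total of 38 sites of MB157R iEV SOX2 and 118 of HA-SOX2 outside chromosomes 1 to 22 and X were left out. Genes were those of GENCODE 44. For 23 motifs, 26 words were searched in 201-bp windows of hg38 on both strands, and in windows 1 kb to each side. Those of CTCF, NRF1, NFI, GRHL, FOX, CEBP, NFY, E-box, SP and KLF, and RBPJ were among them. Shares have exact (Clopper-Pearson) and odds ratios Woolf 95% intervals, all classes being compared within a list. No p values were computed, since each condition was 1 pooled list. A difference was called where the interval left out 1.

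The classes, motifs, gene lists and tests were chosen with earlier results of these data known. Named were 20 genes of interest, the 10 sites of highest fold per class (at most 1 per gene, without overlap by the other list for the one-sided classes), the 5 genes with the most sites per class and members of the lists, those with the highest folds first. DLK1, TGFBI, PHF19 and other listed genes without sites of the other list were singled out after their values had been seen. Sites in untranslated regions and on chromosome 8 were not printed as sequence. Scripts were checked on simulated lists. Calculations used samtools 1.23.1 and Python 3.11.15 with pandas 2.3.3, numpy 2.4.6, pysam 0.24.0, scipy 1.17.1 and matplotlib 3.10.9.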

Additional observations from a re-analysis of the deposited data

Results flagged for a closer look

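For 3 motifs the odds ratio of the one-sided over the shared class lay on opposite sides of 1 in the 2 lists. It was 0.620 at MB157R-only and 1.34 at HA-only sites for the SOX motif, 1.77 at MB157R-only and 0.180 at HA-only sites for the AP-1 motif, and 1.11 at MB157R-only and 0.419 at HA-only sites for the ETS motif. The difference between the lists was not tested, since the shared sites enter both odds ratios. The SOX odds ratio of HA-only sites was close to 1 within bins of GC content. Over 14 alternative settings, bins of GC content among them, the ETS odds ratio was 1.09 to 1.46 at MB157R-only sites. At HA-only sites it was 0.406 to 0.681.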

How the results depend on the processing

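The share of MB157R iEV SOX2 and of HA-SOX2 sites that were shared was 22.9% and 8.04% with summits under 100 bp apart, 30.2% and 10.6% under 250 bp, 40.3% and 14.1% under 1000 bp, and 37.8% and 12.9% for overlapping peaks. It was 32.0% and 9.79% for a −log10 q of at least 5, 13.9% each with the HA-SOX2 list shortened to equal length (a −log10 q of at least 18.3), 36.1% and 11.4% on the 12 chromosomes whose background differed under 1.2-fold, and 31.6% and 10.5% without promoters. It stayed within its interval without sites near the HA control, and also when the fragments and background of the HA-SOX2 list were scaled to the genome background of the MB157R iEV list, which left 107925 HA-SOX2 sites and so did not equalise the lengths. Of the 136 alternative values of the 10 odds ratios for promoters, RBPJ, SOX, AP-1 and ETS, 134 kept their side of 1. The exceptions, with equal length, were promoters at 1.46 and RBPJ at 1.02 for MB157R-only sites. Of the 230 values of the other odds ratios, 20 changed side of 1, and in 18 of those the interval included 1. The other 2, both for MB157R-only sites, were SP and KLF words at 1.32 with equal length and RUNX words at 1.07 under 1000 bp. The settings for GC content and for CTTTTGT as a SOX word, with odds ratios of 0.577 and 1.58, were chosen after seeing the data. Of the 40 strongest sites named, 38 kept their class with summits under 100 bp apart, the exceptions being FGFR2 and CPM. No paired analysis was possible because peaks had been called on pooled libraries, and for the same reason no replicate could be left out. Weak sites limit the comparison, since a site absent from a list may lie below its threshold.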

Other observations

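The local background that the peak caller expected at SOX2 sites was uneven around CDKAL1 and SOX4 on the short arm of chromosome 6. At the 5 MB157R iEV sites within 50 kb of the start of CDKAL1 it was 27.6 to 38.9 fragments, against 2.41 to 3.98 at the 11 HA-SOX2 sites. At the 7 MB157R iEV sites of SOX4, a factor of EMT, it was 40.3 to 60.1, against 2.43 to 5.31 at the 11 HA-SOX2 sites. The site in intron 2 of CDKAL1 (chromosome 6, 20542612 to 20543686) had 1599 fragments at a fold of 52.4 in MB157R iEV. Over 2155 windows of 1 Mb with at least 5 sites in each list, the background of MB157R iEV over that of HA-SOX2, each divided by its genome background, had a median of 1.05 and exceeded 5 in 5 windows. Of those, 3 were neighbors on chromosome 6, from 20 to 23 Mb, with values of 12.4, 18.5 and 13.7. The imbalance also ran the other way, with the lowest value, 0.375, on chromosome 8 from 100 to 101 Mb. The part of these differences in the results was not tested, and copy number was not measured here. In the windows on chromosome 6 a site of MB157R iEV needs more fragments to be called at a given fold.

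The composite of a SOX word and an octamer, the arrangement known for SOX2 and OCT4, was held by few sites, which were looked at after the NRARP sequence had been read. Its 8 MB157R-only, NRARP among them, and 10 shared sites of MB157R iEV had median folds of 8.15 (MB157R-only) and 8.03 (shared), against 5.08 for all MB157R-only and 5.74 for all shared sites. The 59 HA-only and 12 shared sites of HA-SOX2 had median folds of 6.53 (HA-only) and 8.74 (shared), against 5.93 for all HA-only and 6.34 for all shared sites.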
